A study of Homo sapiens with 60 samples.

Results

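Sayeok-tang, a hot water extract of a multi-herb formula, was compared at its high dose of 500 µg/mL with its own low dose of 20 µg/mL in HT29, an established human colorectal adenocarcinoma line grown as an epithelium. The 6 libraries (n = 3 per dose, 24 h of exposure) were chosen by the dose given in their labels, out of 60 in the series, and 3 further libraries at 100 µg/mL, the medium dose, served only to place the doses in order. The series asks how extracts of digestive herbal medicines change gene expression in these cells. Every group is the same unmodified cell line in the same medium, and by their labels the 2 groups compared differ by dose alone. High, medium and low dose share a code set in the labels, while vehicle (DMSO, n = 3) has a code set of its own, so vehicle values stand here as background and not as a contrast. Whether replicates came from separate cultures is not in the labels. The p-values cover only the spread between replicate libraries, which may be technical. Unless another fit is named, that spread was estimated over 54 libraries of 19 groups of the series and not over the compared libraries alone.

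The 9 Sayeok-tang libraries held 18.35 to 26.27 M counts (M, 1e6) and 21572 to 22424 genes with a count. Mitochondrial genes took 5.94% to 7.66% of counts in them. Epithelial and colonic markers were expressed (EPCAM 512 to 593 CPM and KRT20 256 to 283 CPM). CPM are counts per 1e6, for single markers of whole library totals and elsewhere after scaling of library sizes. CDX1 (0.714 to 1.36 CPM), GPA33 (3.68 to 4.68 CPM), CDX2 (4.35 to 6.39 CPM), CDH17 (4.37 to 6.45 CPM) and CEACAM5 (4.65 to 6.57 CPM) were low. Of 23 markers of other cell types, 16 were too low to be tested, with CD3E, COL1A2 and DCN at 0 counts in all 9. LYZ (1730 to 1900 CPM) was the exception in level, and the summed level of the 7 tested markers was 1750 to 1840 CPM at the high and 1780 to 1880 CPM at the low dose.

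Plant extracts meet an epithelial cell through a few well known sensors. Electrophiles and oxidants release the transcription factor NRF2 from its inhibitor KEAP1, which switches on glutathione, NADPH and aldo-keto reductase genes. Planar aromatic compounds bind the aryl hydrocarbon receptor (AhR), whose classic target is the monooxygenase CYP1A1. Interferon-stimulated genes form another program: type I and III interferons act through a complex that holds IRF9 on a promoter element, the ISRE, and the products degrade viral RNA, block replication and sense nucleic acid.

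Between 500 and 20 µg/mL, 64 of 16763 genes tested passed a Benjamini-Hochberg adjusted p of 0.05 in edgeR's quasi-likelihood test (0.382%). Of these, 16 rose with dose (0.0954%) and 48 fell (0.286%). Values of genes below are log2 fold changes of high minus low dose ± SE from that fit, unless a unit is named. The rises were led by detoxification enzymes of the NRF2 and AhR programs. The falls held interferon-stimulated genes, 2 alcohol dehydrogenases, transporters and many genes of very long span. Sizes were mostly modest, with ALDH3A1 1.64-fold higher at the high dose and OAS2 1.91-fold higher at the low dose. The scarce CYP1A1 rose 3.31-fold. Some other called genes also changed by more than OAS2, among them RF00100 (-2.38, resting on 1 library), Z97192.1 (-1.90), AP002358.1 (-1.26), SHANK2 (-1.12) and LINC02253 (below). A core of 12 genes kept the call with each of the 6 libraries left out: ALDH3A1, AKR1B10, AKR1C1, AKR1C2, UGT1A6, ADH6, SLC14A1, NAALADL2, WWOX, AKAP7, SYTL2 and BCAS1. The other 52 lost it without at least 1 library, and 30 of the 64 lost it when low-count genes were kept in the test.

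Promoters of genes on both sides of the comparison are shown first, since these elements are the textbook switches of the programs described below. Each is the 250 bases before a RefSeq start on GRCh38.p14, 5′ to 3′ on the gene's strand, with a match to the program's element in capitals. The genes were chosen by hand, and only starts that hold a match could be printed, so the display is no evidence of a link. The interferon element was searched as GAAANNGAAA, the NRF2 element as TGACNNNGC and the AhR element as GCGTG, on both strands. The interferon-stimulated genes IFI44 (chr1:78649539-78649788, plus strand, 1 of 2 starts listed), PLSCR1 (chr3:146544608-146544857, minus strand, 1 of 2 starts listed) and MX1 (chr21:41431800-41432049, plus strand, 1 of 3 starts listed) fell with dose. ABCB6 (chr2:219218959-219219208, minus strand), shown for the NRF2 element though outside the list of NRF2 targets, and CYP1A1 (chr15:74725529-74725778, minus strand) rose.
IFI44: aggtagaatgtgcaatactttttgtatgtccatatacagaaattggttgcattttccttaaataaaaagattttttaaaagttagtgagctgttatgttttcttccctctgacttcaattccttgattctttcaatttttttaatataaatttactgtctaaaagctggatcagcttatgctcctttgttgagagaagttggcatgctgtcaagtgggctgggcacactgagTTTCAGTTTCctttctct
PLSCR1: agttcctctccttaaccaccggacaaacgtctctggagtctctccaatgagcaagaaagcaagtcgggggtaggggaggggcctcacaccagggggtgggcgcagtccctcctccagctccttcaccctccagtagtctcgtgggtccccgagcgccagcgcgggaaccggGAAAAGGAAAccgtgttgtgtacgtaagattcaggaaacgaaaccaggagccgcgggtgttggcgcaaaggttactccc
MX1: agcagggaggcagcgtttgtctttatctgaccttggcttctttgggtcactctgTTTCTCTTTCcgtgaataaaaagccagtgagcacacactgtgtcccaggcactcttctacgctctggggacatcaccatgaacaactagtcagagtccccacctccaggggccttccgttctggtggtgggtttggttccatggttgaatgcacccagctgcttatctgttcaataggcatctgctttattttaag
ABCB6: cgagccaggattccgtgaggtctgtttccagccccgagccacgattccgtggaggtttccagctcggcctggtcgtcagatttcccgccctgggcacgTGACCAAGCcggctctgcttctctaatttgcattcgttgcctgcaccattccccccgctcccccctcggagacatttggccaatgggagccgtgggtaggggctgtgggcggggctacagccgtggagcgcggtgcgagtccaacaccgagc
CYP1A1: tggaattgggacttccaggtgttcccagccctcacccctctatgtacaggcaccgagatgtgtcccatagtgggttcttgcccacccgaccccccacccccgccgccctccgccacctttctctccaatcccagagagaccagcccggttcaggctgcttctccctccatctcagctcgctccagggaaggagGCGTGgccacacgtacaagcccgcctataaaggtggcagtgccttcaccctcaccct

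The match begins 18 bases before the start in IFI44, 79 in PLSCR1, 196 in MX1, 152 in ABCB6 and 57 in CYP1A1. In IFI44 and MX1 it lies on the opposite strand, so the capitals there read as the reverse complement of the letters searched. Of the 42 interferon-stimulated genes tested, 35 had a promoter entry, and 25 of these (71.4%) held the interferon element in at least 1 entry, against 3.71% of the 27305 genes in the table. Among the 48 genes that fell, 37 had an entry and 4 held it (10.8%): IFI44, MX1, PLSCR1 and PARP9. The NRF2 element was in 7 of 21 NRF2 targets with an entry (33.3%) against 13.2% of all genes, and the AhR element in 6 of 8 AhR targets (75.0%) against 36.2%. Among the called genes with an entry, the NRF2 element was in 3 of 9 that rose (33.3%) and 4 of 37 that fell (10.8%), and the AhR element in 4 of 9 that rose (44.4%) and 19 of 37 that fell (51.4%). A match describes these letters in this window only.

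Interferon-stimulated genes were lower at the high than at the low dose. Of 42 tested, 8 fell (background 0.286%) and 0 rose, and all 42 had a negative log2 fold change, with a median of -0.43 against 0.00 over all genes. In 32 of the 42, each high-dose library lay below each low-dose library, an arrangement found in 10.8% of all genes. Summed over the list, the level was 1760 to 1810 CPM at the high, 2000 to 2060 CPM at the medium and 1950 to 2160 CPM at the low dose, beside 1700 to 1830 CPM in vehicle. In bulk RNA, fewer cells making a transcript and less of it per cell cannot be told apart.

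OAS2, an oligoadenylate synthetase that makes the messenger activating RNase L (chromosome 12, 112978395 to 113011723, GRCh38), stood at 7.36, 5.73 and 6.80 CPM at the high dose. Its levels were 14.2, 10.2 and 12.2 CPM at the medium dose, 15.7, 9.75 and 12.5 CPM at the low dose and 6.67, 4.32 and 6.34 CPM in vehicle. All 3 high-dose libraries lay below the other Sayeok-tang libraries, and medium overlapped low. The high-dose levels were near those of vehicle, which has a code set of its own. The difference was -0.93 ± 0.20 (n = 3 against 3, edgeR adjusted p = 0.022).

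OAS1, its neighbour on the chromosome (112906777 to 112933222), repeated the shape at a higher level. High-dose libraries held 33.2, 27.2 and 31.9 CPM, medium 46.0, 41.8 and 45.8 CPM, low 48.3, 38.6 and 42.3 CPM, and vehicle 30.1, 26.3 and 30.7 CPM. High dose did not overlap the lower doses. The difference was -0.48 ± 0.09 (edgeR adjusted p = 0.00731), and OAS1 also fell in the upper dose step alone, from 100 to 500 µg/mL (-0.53, edgeR adjusted p = 0.0172).

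MX1, a dynamin-like GTPase that traps viral nucleocapsids, stood at 11.0, 8.87 and 10.4 CPM at the high and 21.2, 13.6 and 16.8 CPM at the low dose (-0.77 ± 0.16, edgeR adjusted p = 0.0106). CMPK2, a mitochondrial nucleotide kinase (-0.86 ± 0.19), HERC6, of the HECT ubiquitin ligase family (-0.61 ± 0.14), IFI44 (-0.59 ± 0.13), PARP9, an ADP-ribosyltransferase family member (-0.40 ± 0.08), and PLSCR1, a phospholipid scramblase (-0.33 ± 0.07), fell as well. Each of these 6 had its 3 high-dose libraries below its 3 low-dose libraries. PLSCR1, for example, held 65.9, 62.5 and 65.7 CPM against 86.8, 75.6 and 81.7 CPM. Other members of the list with wide differences missed the threshold, such as IFI44L (-1.25 ± 0.33, edgeR adjusted p = 0.0943) and DDX60 (-0.69 ± 0.18, edgeR adjusted p = 0.0912).

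The lists of nucleic acid sensors and of interferon ligands, receptors and signalling genes gave 1 call. Of 11 nucleic acid sensors and their adaptors, 1 fell (background 0.286%). DDX58, which encodes the RNA sensor RIG-I, stood at 14.3 CPM in each high-dose library and 22.2, 18 and 18.9 CPM at the low dose (-0.46 ± 0.10, edgeR adjusted p = 0.0278). Its relative IFIH1 (-0.27 ± 0.12) and the adaptor MAVS (-0.01 ± 0.08) did not pass. Of 18 interferon ligands, receptors and signalling genes, 0 passed the test. IRF9, a DNA-binding subunit of that complex, came closest with 14.6, 14.0 and 15.9 CPM against 22.9, 20.4 and 20.2 CPM (-0.51 ± 0.13, edgeR adjusted p = 0.0522). IRF9 was called lower with DESeq2, with DESeq2 size factors, with low-count genes kept and in the fit of the 6 compared libraries, where the receptor chain IFNGR1 was called higher. The receptor chains IFNAR1 (0.02 ± 0.07) and IFNAR2 (-0.13 ± 0.13) were close to 0. MHC class I and proteasome genes gave 0 calls of 17, with a median of -0.06.

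In the fit without a replicate block, how many of these genes are called rests on single libraries. In the 42 interferon-stimulated genes, replicate 1 was the highest library in 32 at the low and 20 at the high dose, and replicate 2 was the lowest in 33 at the low and 28 at the high dose. Without low 1 or high 2, 0 of the 42 were called, and without high 1, high 3, low 2 or low 3 it was 5, 3, 8 and 4. In a fit of the 6 compared libraries alone, 19 of 41 fell (background 1.97%), and without 3 libraries of other groups that stand apart in ribosomal protein or mitochondrial share, 22 of 42 fell (background 1.42%). MX1 was not called in the fit of 6 libraries, nor MX1 and OAS2 in a fit of the 9 Sayeok-tang libraries. With the replicate number as a block in the fit of 6 libraries, 25 of 41 fell, beside 397 of all 14958 genes. MX1 (edgeR adjusted p = 4.5e-07) and OAS2 (edgeR adjusted p = 2.4e-07) were among them. Whether the numbers pair the samples is not in the labels.

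**Figure D1:**
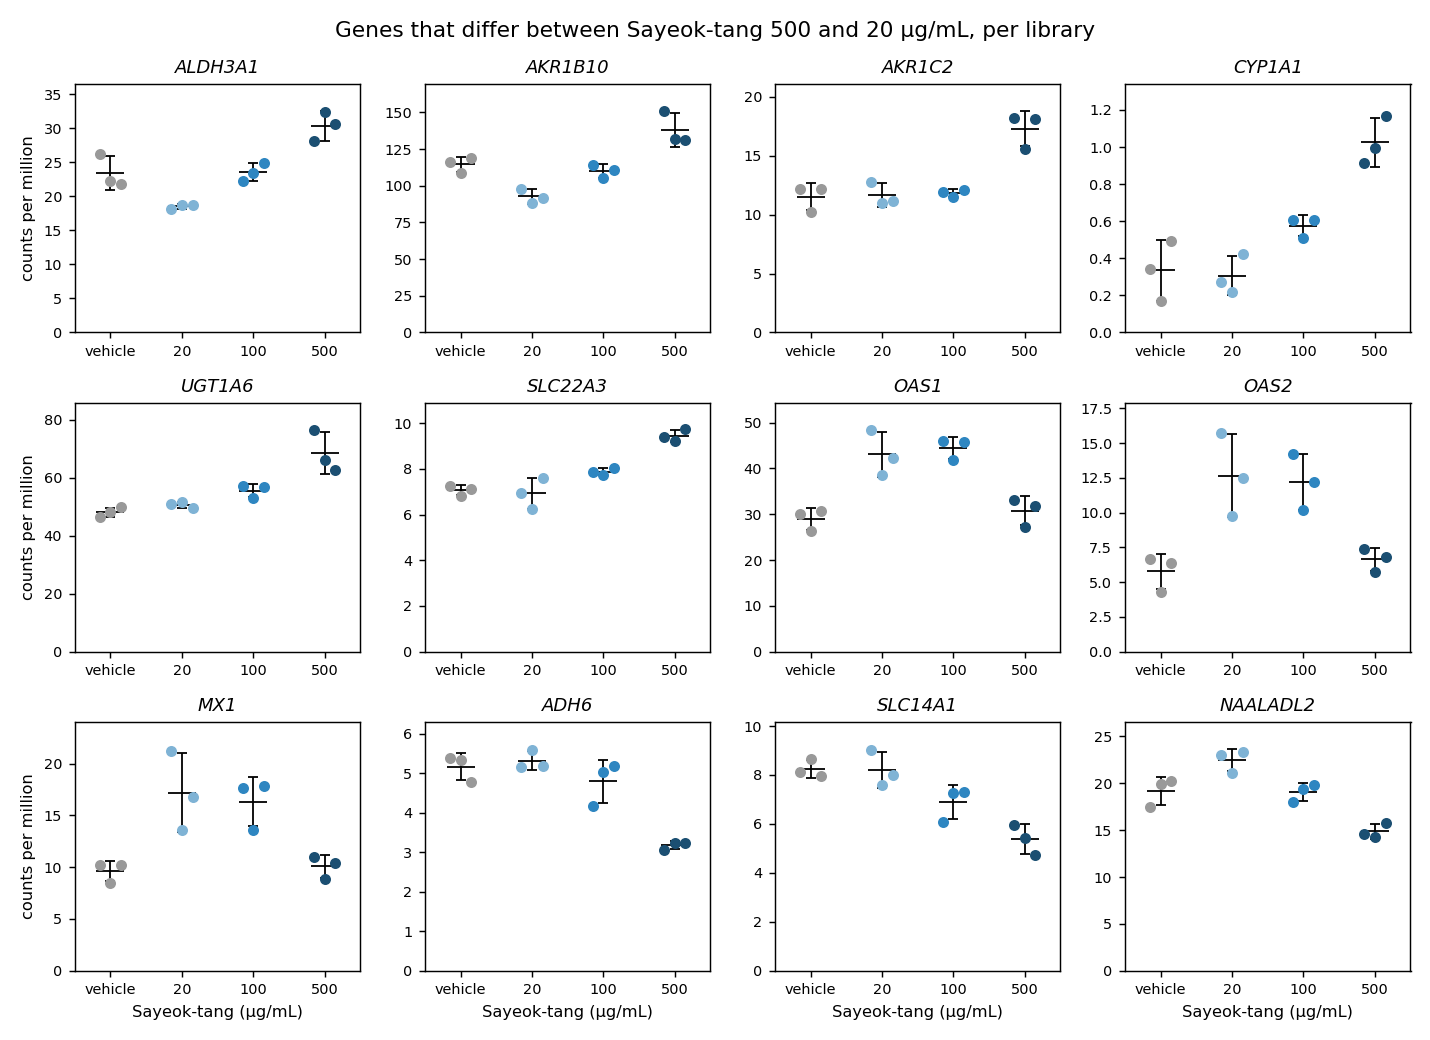
CPM (vertical axes, from 0) of 12 genes in vehicle and at 20, 100 and 500 µg/mL of Sayeok-tang. Points are libraries (n = 3), and bars are the mean ± SD. In OAS1, OAS2 and MX1 the medium dose lies with the low dose, and only the high dose is near vehicle. ALDH3A1 and AKR1B10 climb at both steps, and NAALADL2 descends at both.

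Some detoxification genes rose with dose. Of 29 NRF2 targets tested, 4 rose (AKR1B10, AKR1C1, AKR1C2 and GSR, background 0.0954%) and 0 fell. In 28 of the 29 the log2 fold change was positive, with a median of 0.22, and in 25 of 29 all high-dose libraries lay above all low-dose libraries (10.7% of all genes). Of 10 AhR targets, 3 rose (ALDH3A1, UGT1A6 and CYP1A1) and 0 fell, with a median of 0.23. Of 27 cytochromes P450 and conjugation enzymes, 2 rose (UGT1A1 and UGT1A6, the latter alone with any 1 of the 6 libraries left out) and 0 fell, while 17 had a negative value and the median was -0.06. ABC efflux pumps gave 0 calls of 9 (median 0.04). In a fit of the 6 compared libraries alone, 17 of the 29 NRF2 targets rose and 0 fell, and 7 of the 10 AhR targets rose and 1 fell (background 1.5% for rises and 1.97% for falls).

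ALDH3A1, an aldehyde dehydrogenase of epithelia that is listed as a target of AhR (chromosome 17, 19737984 to 19748943), had the smallest adjusted p of the rises. Its levels were 28.1, 32.4 and 30.6 CPM at the high dose, 22.3, 23.5 and 24.9 CPM at the medium dose and 18.1, 18.7 and 18.8 CPM at the low dose. No library of one dose overlapped another dose. The difference was 0.71 ± 0.10 (edgeR adjusted p = 1.6e-04), and vehicle held 26.3, 22.2 and 21.8 CPM, around the medium dose.

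CYP1A1, the monooxygenase whose promoter is printed above, was scarce, at 0.913, 0.996 and 1.17 CPM at the high, 0.608, 0.512 and 0.609 CPM at the medium and 0.272, 0.221 and 0.423 CPM at the low dose. It was ordered by dose without overlap, and its rise of 1.73 ± 0.34 was the largest in log2 terms (edgeR adjusted p = 0.00868). That call ended without low 1, low 2 or high 3, where the log2 fold change ranged from 1.54 to 2.06 over the 6 left-out libraries. UGT1A6, a glucuronosyltransferase of planar phenols, stood at 76.5, 65.9 and 62.7 CPM against 50.8, 51.6 and 49.6 CPM (0.43 ± 0.07, edgeR adjusted p = 4.3e-04). UGT1A1, which conjugates bilirubin, rose too (0.30 ± 0.07). The UGT1A genes share their last exons, so their counts are uncertain as separate genes. CYP1B1 (0.31 ± 0.08, edgeR adjusted p = 0.053) missed the threshold, and TIPARP (0.16 ± 0.08) and the AhR repressor AHRR (-0.23 ± 0.13) were further from it.

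The aldo-keto reductases, which reduce reactive carbonyls and steroids with NADPH, gave 3 of the 4 calls among NRF2 targets. AKR1B10 (chromosome 7, 134527592 to 134541408) stood at 151, 132 and 131 CPM at the high, 114, 105 and 111 CPM at the medium and 97.9, 88.3 and 91.8 CPM at the low dose (0.58 ± 0.09, edgeR adjusted p = 4.2e-04). AKR1C1 held 23.5, 21.3 and 19.2 CPM against 14.1, 14.6 and 13.9 CPM (0.58 ± 0.09, edgeR adjusted p = 4.4e-04). In both, the medium libraries lay between the others without overlap.

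AKR1C2 differed in shape: 18.2, 15.6 and 18.1 CPM at the high dose, but 11.9, 11.5 and 12.1 CPM at the medium and 12.8, 11.0 and 11.2 CPM at the low dose. Its whole rise (0.57 ± 0.10) lay in the upper dose step, which also passed on its own (0.54, edgeR adjusted p = 0.0172). AKR1C3 (0.53 ± 0.15, edgeR adjusted p = 0.13) did not pass. The AKR1C genes are near-identical copies that share reads, so how the reads were split among them is uncertain.

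The remaining NRF2 targets moved by less. GSR, glutathione reductase, rose from 61.3, 64.8 and 63.8 CPM to 74.8, 73.2 and 69.8 CPM (0.20 ± 0.05, edgeR adjusted p = 0.0328). TXNRD1 (0.27 ± 0.07), NQO1 (0.28 ± 0.08), GCLM (0.38 ± 0.13) and HMOX1 (0.30 ± 0.10) did not pass, although NQO1 held 627, 635 and 614 CPM against 526, 504 and 517 CPM. The sensors themselves, 11 genes with NFE2L2 (-0.01 ± 0.06), which encodes NRF2, KEAP1 (0.14 ± 0.06) and AHR (0.00 ± 0.10), gave 0 calls.

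Outside these lists, TRIM16L (0.43 ± 0.08), PIR, an iron-binding nuclear protein (0.40 ± 0.10), ABCB6, a porphyrin transporter (0.30 ± 0.06), SERPINB5, the serpin maspin (0.26 ± 0.06), CAVIN1, a coat protein of caveolae (0.25 ± 0.06), and UNKL (0.24 ± 0.06) rose. TRIM16L has a close paralog, TRIM16 (0.23 ± 0.06, edgeR adjusted p = 0.053), with which reads can be shared. LINC02253, a long noncoding RNA, rose by 1.51 ± 0.32 from 0.227, 0.397 and 0.307 CPM to 1.18, 0.747 and 0.782 CPM, overlapping vehicle (1.08, 0.589 and 0.646 CPM), a call that DESeq2 did not make.

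**Figure D2:**
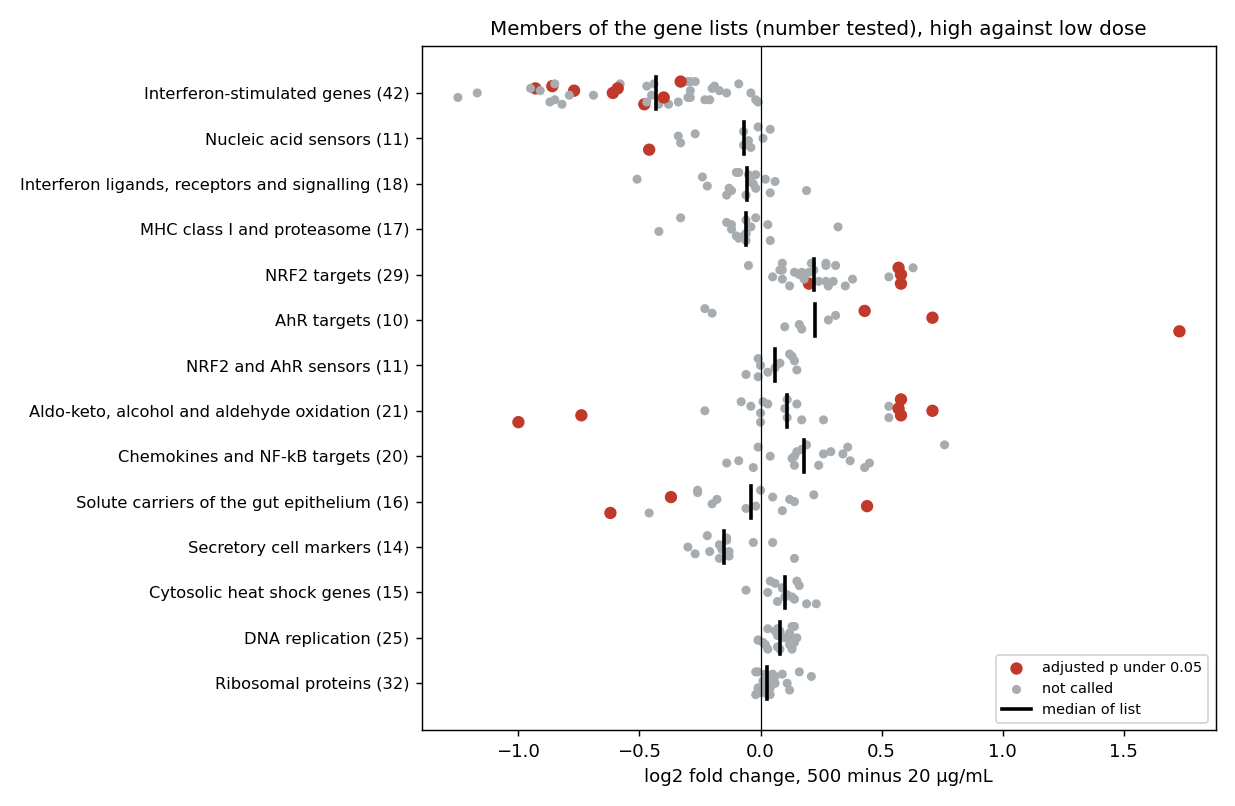
Log2 fold change of 500 minus 20 µg/mL (horizontal axis) for the tested members of 14 gene lists, with the number tested in brackets. Red points are genes with an adjusted p under 0.05 in edgeR's test, grey points are the others, and black bars are list medians. All 42 interferon-stimulated genes lie left of 0 and 28 of 29 NRF2 targets right of it, while the lists of their sensors and signalling genes have medians from -0.07 to 0.06.

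Both alcohol dehydrogenases that passed the test, ADH6 and ADH1C, fell. In the list of aldo-keto, alcohol and aldehyde oxidation genes (21 tested), 4 rose (background 0.0954%) and 2 fell (background 0.286%). The 4 rises were AKR1B10, AKR1C1, AKR1C2 and ALDH3A1, already counted above among NRF2 or AhR targets. ADH6 (chromosome 4, 99202638 to 99219537) stood at 3.06, 3.24 and 3.24 CPM at the high, 4.17, 5.03 and 5.18 CPM at the medium and 5.17, 5.6 and 5.19 CPM at the low dose (-0.74 ± 0.11, edgeR adjusted p = 4.2e-04). High dose stood alone below all other libraries, vehicle included (5.39, 5.33 and 4.78 CPM), and the upper dose step passed on its own (-0.59, edgeR adjusted p = 0.0457). ADH1C, which oxidizes ethanol and retinol, stood at 1.45, 1.10 and 2.03 CPM against 2.77, 2.65 and 3.84 CPM (-1.0 ± 0.21, edgeR adjusted p = 0.0143), with reads that close copies in the ADH1 cluster can share. The call of ADH1C ended without high 1, high 2 or low 3. ALDH5A1, which oxidizes succinic semialdehyde, fell too (-0.36 ± 0.08).

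Membrane transport was mixed. Of 16 solute carriers of the gut epithelium, 1 rose (background 0.0954%) and 2 fell (background 0.286%). SLC14A1, a urea channel, stood at 5.96, 5.43 and 4.73 CPM at the high, 6.08, 7.27 and 7.31 CPM at the medium and 9.03, 7.59 and 7.99 CPM at the low dose (-0.62 ± 0.11, edgeR adjusted p = 0.00133). The doses did not overlap. SLC6A20, a proline carrier, held 10.1, 10.5 and 10.6 CPM against 13.8, 13.1 and 13.4 CPM (-0.37 ± 0.07, edgeR adjusted p = 0.00637). The organic cation transporter SLC22A3 rose, from 6.94, 6.26 and 7.61 CPM to 9.40, 9.21 and 9.73 CPM (0.44 ± 0.09, edgeR adjusted p = 0.00637). KCNE3, a potassium channel subunit of the colon (-0.25 ± 0.05), and GABRP, a GABA receptor subunit (-0.38 ± 0.08), also fell.

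Further falls came from several kinds of protein. BCAS1 stood at 55.6, 57.7 and 52.7 CPM against 68.7, 74.6 and 74.9 CPM (-0.40 ± 0.06, edgeR adjusted p = 5.0e-04). SYTL2, a Rab27 effector of vesicle traffic, held 29.4, 28 and 27.7 CPM against 40.2, 40.5 and 40.1 CPM (-0.51 ± 0.10), and AKAP7, an anchor of protein kinase A, 7.68, 8.82 and 8.09 CPM against 11.3, 12 and 12.1 CPM (-0.53 ± 0.09). These 3 kept their call with each of the 6 libraries left out. WDR66 (-0.78 ± 0.18), GOLGA7B (-0.73 ± 0.15), WIPI1, an autophagy protein (-0.47 ± 0.11), SP100, a nuclear body protein (-0.27 ± 0.06), the protease TMPRSS2 (-0.26 ± 0.06) and the growth factor receptor FGFR2 (-0.25 ± 0.06) fell as well. RF00100, an RNA of the 7SK family, was called at -2.38 ± 0.55, but that value rests on low replicate 3 (12.1 CPM, against 1.41 and 1.63 CPM in the other low-dose libraries), and without it the log2 fold change was -0.63.

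Many of the falls were in genes of long genomic span, a pattern chosen after the values were seen and so described without a test. The 48 genes that fell had a median span of 68.6 kb, against 23.3 kb for the 16653 tested genes with a position and 29.5 kb for the 16 that rose. Of the 48, 13 exceeded 300 kb (27.1%, against 2.65% of all), and none of the 9 interferon and sensor genes did. Of the 84 genes over 600 kb, 9 fell (10.7%) and 0 rose.

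NAALADL2, a peptidase-like membrane protein (chromosome 3, 174438573 to 175810552, 1370 kb), stood at 14.6, 14.3 and 15.8 CPM at the high, 18, 19.4 and 19.8 CPM at the medium and 23.0, 21.1 and 23.3 CPM at the low dose. The doses did not overlap, and the difference was -0.59 ± 0.08 (edgeR adjusted p = 1.6e-04). WWOX, an oxidoreductase at a common fragile site (1110 kb), held 9.72, 9.26 and 9.77 CPM against 14.0, 12.5 and 13.4 CPM (-0.47 ± 0.07, edgeR adjusted p = 4.3e-04). Both kept their call with each of the 6 libraries left out.

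The scaffold SHANK2 (785 kb) had the largest fall among genes of this length, from 2.90, 4.50 and 3.69 CPM to 1.66, 1.69 and 1.72 CPM (-1.12 ± 0.24, edgeR adjusted p = 0.0156). MACROD2, an ADP-ribosylhydrolase and the longest of the 13 (2060 kb), changed by -0.62 ± 0.15 (not called by DESeq2), the polarity gene PARD3B (1070 kb) by -1.05 ± 0.24 and the uracil catabolic enzyme DPYD (917 kb) by -0.51 ± 0.12. The others were CEP112 (-0.82), THSD4 (-0.48), PLCB1 (-0.45), ARL15 (-0.40), FBXL17 (-0.32), the receptor ROR1 (-0.26) and the exocyst subunit EXOC4 (-0.24). All 13 fell, and in DPYD the medium dose lay above the low dose.

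The length pattern extended beyond the called genes. The median high minus low value was 0.02 for genes under 10 kb, 0.00 for 30 to 100 kb, -0.04 for 100 to 300 kb, -0.10 for 300 to 600 kb and -0.14 over 600 kb. The share of genes with a negative value was 44.3% in the shortest class, 82.1% from 300 to 600 kb and 76.2% over 600 kb. Summed over the 428 genes above 300 kb that were not called, the level was 14890 to 15022 CPM at the high and 15810 to 16087 at the low dose, without overlap. It was 14730 to 15372 at the medium dose and 13279 to 15201 in vehicle. The 13279 was vehicle replicate 1, a library that stands apart, and vehicle replicate 2 held 14852. A lower sum at the high dose, without overlap, was also found in Bojungikgi-tang (15243 to 15377 against 15774 to 15805, n = 2 each). The same held for fresh ginger, Zingiberis Rhizoma Recens (15485 to 15635 against 15671 to 16308). High and low dose overlapped in dried ginger (15378 to 15849 against 15801 to 15914) and Pinelliae Tuber. In Scutellariae Radix they overlapped only through low replicate 3, a library that stands apart, at 11115. Low replicates 1 and 2 there held 15579 and 15571, above the 14837 to 15341 of the high dose. The sum also varied between replicates of other groups, down to that 11115. The part of such library differences in the result was not tested. Nuclear-retained RNAs, looked at after the pattern was seen, did not pass, with MALAT1 at -0.08 and NEAT1 at 0.02.

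**Figure D3:**
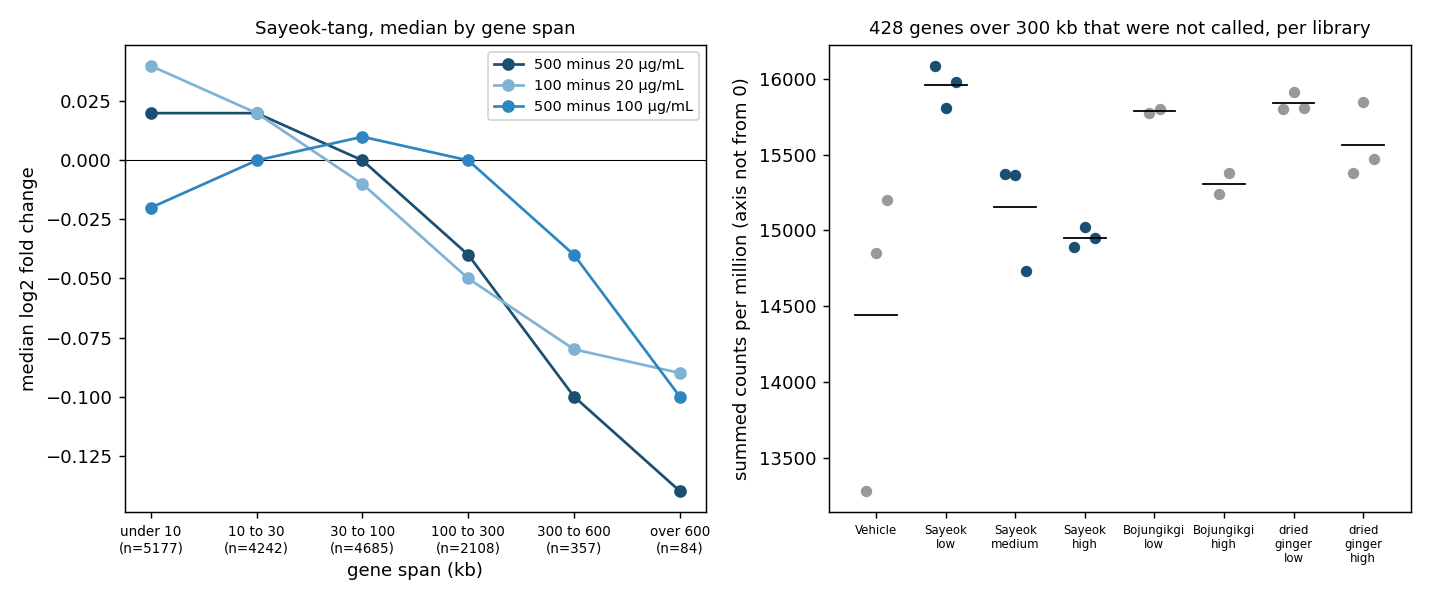
Left: median log2 fold change of 3 dose contrasts of Sayeok-tang (vertical axis) by class of gene span, with the number of genes. Right: summed CPM of the 428 uncalled genes over 300 kb in each library (points) with group means (lines), on an axis that does not start at 0. The median of 500 minus 20 µg/mL goes from 0.02 under 10 kb to -0.14 over 600 kb, and the 3 high-dose Sayeok-tang libraries lie below the 3 low-dose libraries.

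In 59 of the 64 called genes the mean of the medium dose lay between those of high and low (92.2%, against 38.5% of all genes), as the choice of genes with distant end points favours. In 27 of the 64 all 9 libraries were in dose order without overlap (9 rises, background 0.501%, and 18 falls, background 0.567%). The same choice favours this count, since such order needs high and low dose to lie apart. Over all genes, high dose lay wholly above low in 10.7% and wholly below it in 10.8%. With 0% as the low dose and 100% as the high dose on the log2 scale, the medium dose lay at a median of 39% in the rises, 31% in the 13 long genes that fell and 37% in the 26 other falls outside the interferon and sensor lists. In the 9 called interferon and sensor genes it lay at 9%, and each was under 25%, as were 3 of the 16 rises, 2 of the 13 long genes and 6 of the 26 other falls. The difference in position between these sets was not tested.

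Over the 42 interferon-stimulated genes tested the median position was 4%, against 54% over all genes. In 38 of the 42 the position was under 25%, as in 6311 of all 16763 genes. In 19 of the 42 the medium dose lay beyond the low dose, as in 4979 of all genes, and IFI35, PARP14, DTX3L and EIF2AK2 lay at 25% or above. The median log2 fold change of the list was -0.02 from 20 to 100 µg/mL and -0.51 from 100 to 500 µg/mL. For the 29 NRF2 targets the median position was 40%, with steps of 0.08 and 0.13. As single contrasts the steps were small: the lower step called 0 genes in edgeR's quasi-likelihood test (0.0%), with 399 at an unadjusted p under 0.05 (2.38%), and 0 in DESeq2. The upper step called 3 (0.0179%), AKR1C2, OAS1 and ADH6. With the shared spread of the 9 Sayeok-tang libraries alone the steps called 16 and 61 genes.

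**Figure D4:**
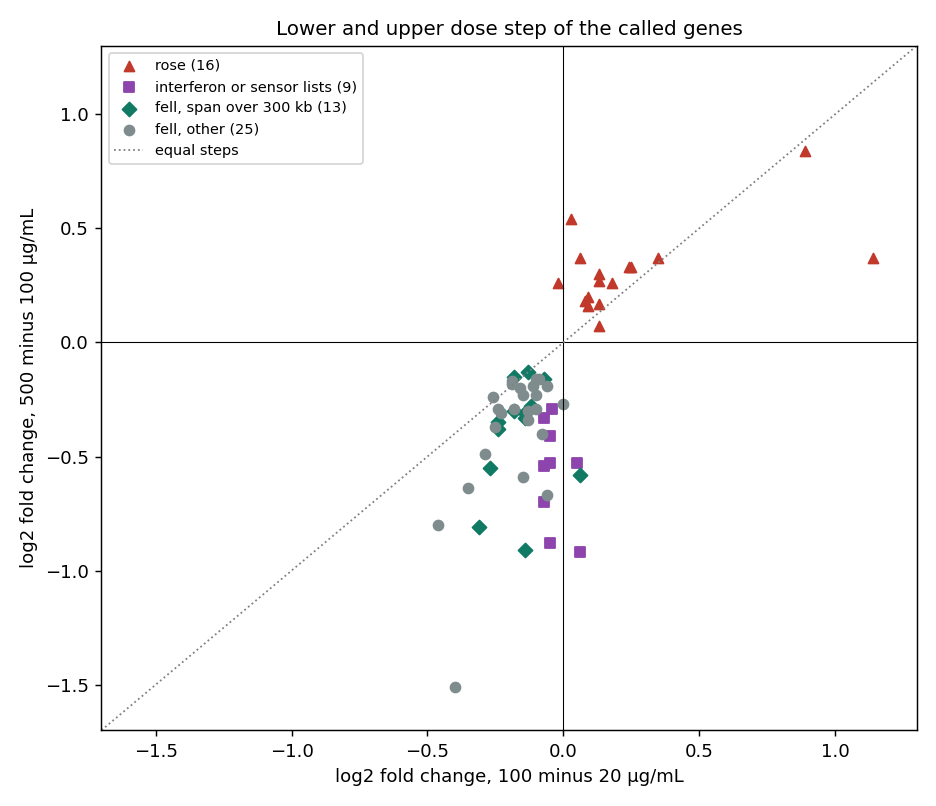
Lower dose step (100 minus 20 µg/mL, horizontal axis) against upper dose step (500 minus 100 µg/mL, vertical axis), both as log2 fold changes, for 63 of the 64 called genes (RF00100 is left out, as it rests on 1 library). The 9 interferon and sensor genes lie near 0 on the lower step and below it on the upper step, while 12 of the 13 long genes and 15 of the 16 rises have their medium dose between the others.

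Chemokine differences by dose did not pass. Of 20 chemokine and NF-kB target genes, 0 passed between high and low dose, with a median of 0.18. CXCL8, the neutrophil chemokine, stood at 28.4, 24.7 and 26.9 CPM at the high, 27.8, 25.0 and 29.7 CPM at the medium and 22.4, 19.9 and 21 CPM at the low dose, beside 5.00, 4.46 and 4.75 CPM in vehicle (0.34 ± 0.10, edgeR adjusted p = 0.173). CXCL1 (0.43 ± 0.15, edgeR adjusted p = 0.401) and CCL20 (0.45 ± 0.19, edgeR adjusted p = 0.628) likewise held medium and high levels that overlapped. In the fit of the 6 compared libraries 4 of the 20 rose (background 1.5%). GPAT3, which starts triglyceride synthesis (0.33 ± 0.08, edgeR adjusted p = 0.0606), ACSS2, an acetyl-CoA synthetase (-0.25 ± 0.07, edgeR adjusted p = 0.108), and CD200 (-0.22 ± 0.09, edgeR adjusted p = 0.56) did not pass.

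Whether the dose difference is shared was tested against 2 other extracts at the same 500 and 20 µg/mL. Bojungikgi-tang (n = 2 per dose) is another formula in water, from the same code set. The interaction of extract and dose called 0 genes in edgeR's quasi-likelihood test (0.0%), with 295 at an unadjusted p under 0.05 (1.76%), and 0 in DESeq2. The estimates lay close for several rises: AKR1C2 0.57 ± 0.10 in Sayeok-tang and 0.61 ± 0.12 in Bojungikgi-tang, ALDH3A1 0.71 ± 0.10 and 0.67 ± 0.12, CYP1A1 1.73 ± 0.34 and 2.04 ± 0.34. ADH6 was at -0.74 ± 0.11 and -0.68 ± 0.13. They lay further apart for OAS1 (interaction -0.22 ± 0.15), MX1 (-0.42 ± 0.24), NAALADL2 (-0.46 ± 0.13) and LINC02253 (1.63 ± 0.47), each with an adjusted p of 1. With 2 libraries per dose these intervals are wide, and a p that misses the threshold does not show that the formulas act alike. Over the 42 interferon-stimulated genes the median was -0.43 in Sayeok-tang and -0.23 in Bojungikgi-tang. Over the 29 NRF2 targets it was 0.22 and 0.15.

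Zingiberis Rhizoma, dried ginger extracted in ethanol (n = 3 per dose), is also, in textbook recipes, an herb of Sayeok-tang. Here the interaction called 110 genes (0.656%), 20 higher in Sayeok-tang and 90 lower, and 14 of them were among the 64. AKR1C2 rose by 3.17 ± 0.10 between the doses of dried ginger, and the interaction was -2.60 ± 0.14 (edgeR adjusted p = 7.5e-18). AKR1C1 gave -2.07 ± 0.13 and AKR1B10 -1.34 ± 0.12. Of the 29 NRF2 targets, 12 were lower in this interaction (background 0.537%). In the falls the order of the extracts was not uniform: SLC14A1 fell more in dried ginger (-1.65 ± 0.11, interaction 1.03 ± 0.16), while WWOX was at -0.01 ± 0.07 there (interaction -0.46 ± 0.10, edgeR adjusted p = 0.016). Of the 42 interferon-stimulated genes, 0 passed in the interaction. OAS1 came closest of the called members, at 0.00 ± 0.09 in dried ginger (interaction -0.48 ± 0.13, edgeR adjusted p = 0.09). The 2 extracts differ in solvent and code set as well as in herbs, and these cannot be told apart.

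**Figure D5:**
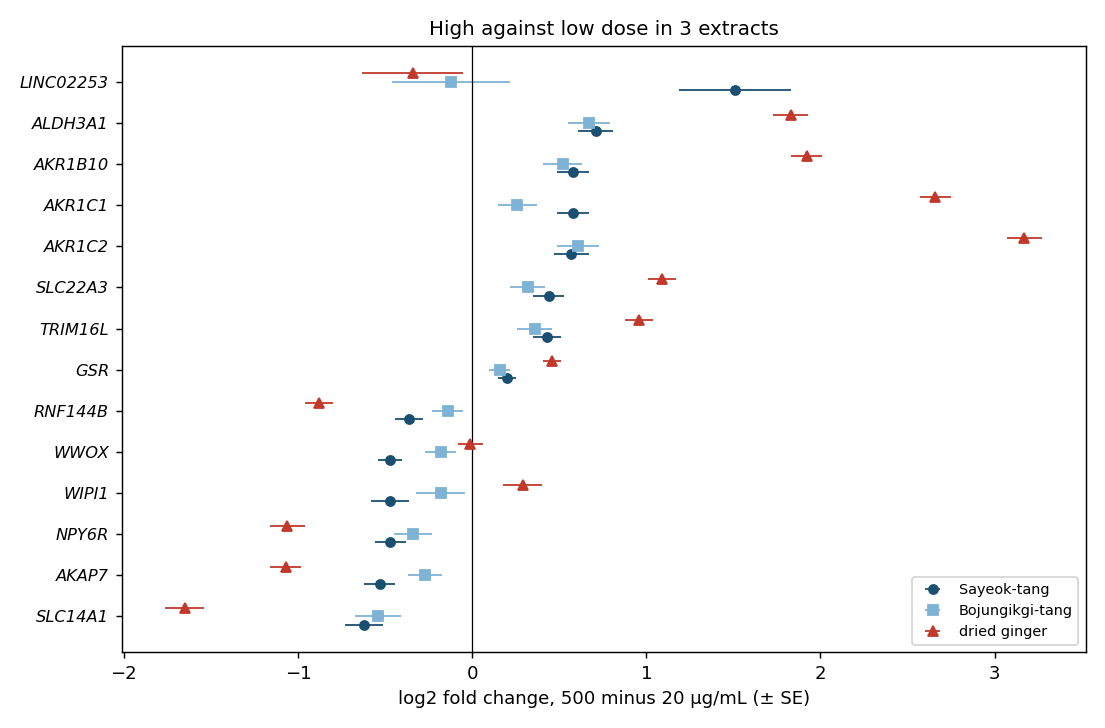
Log2 fold change of 500 minus 20 µg/mL ± SE (horizontal axis) in Sayeok-tang, Bojungikgi-tang and dried ginger for the 14 called genes whose dose difference also differed between Sayeok-tang and dried ginger. For AKR1C2 the values are 0.57, 0.61 and 3.17, and for WWOX -0.47, -0.18 and -0.01.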

How the data were processed

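RNA of HT29 cells was sequenced after 24 h of exposure. The authors deposited 1 table of RSEM expected counts per Ensembl gene and library, for which the submitters' processing notes name STAR 2.7.3a and RSEM 1.3.3 after trimming with Trim Galore 0.6.5 and checks with FastQC 0.11.9. For the annotation release, strand setting and filters nothing is stated (not given in the sources used here). Overlapping and antisense genes therefore cannot be told apart. A further 210 columns outside the series' samples were not used. Columns were matched to samples by the code in the labels. The deposited expected counts were rounded before use, and symbols and positions came from GENCODE 29 on GRCh38 (57055 of 60675 IDs).

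All 54 libraries of the 19 groups with 2 or 3 replicates entered 1 fit in edgeR 4.0.16 (R 4.3.3): filterByExpr (16763 genes), TMM, estimateDisp without tagwise values, robust glmQLFit and glmQLFTest, with 35 residual degrees of freedom and Benjamini-Hochberg adjustment at 0.05. CPM are scaled by TMM, except those of single cell type markers (EPCAM to LYZ), which use whole library totals. The SE is the log2 fold change over the root of F. A gene at 1 CPM has about 18 to 26 counts in these libraries, so scarce genes are the least precise. On simulated data made from these libraries (16484 genes), this contrast recovered 81% of genes given a 1.5-fold and 99% of genes given a 2-fold change, with 5.3% of calls false. For the interaction with dried ginger these were 52%, 96% and 5.1%. The simulation took each gene's spread from the trend alone and changed only genes above an average log2 CPM of 1. It held no gene-specific spread, deviant library or replicate effect, so these shares need not hold for the real libraries.

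The comparison, the 35 gene lists and the tests were chosen with earlier results of these data known, so no list is independent evidence. The text names the 15 largest rises and falls among calls above an average log2 CPM of 1 without overlap of the groups, members of the described lists, and 9 further genes fixed with the lists. Other called genes, among them those named for long span, AKAP7, SYTL2, BCAS1, SP100, TMPRSS2, KCNE3, FGFR2, GABRP, ALDH5A1 and LINC02253, were chosen after their values were seen. Promoters are from RefSeq (GRCh38.p14). Alternatives were DESeq2 1.42.0, edgeR with DESeq2's size factors, testing without the low-count filter, fewer libraries, replicate blocks and each library left out; list counts under them were added after seeing the data. Some genes that these rules select do not appear in the text, though counts of whole lists include them.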

Additional observations from a re-analysis of the deposited data

Results flagged for a closer look

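For 14 of the 64 genes called between high and low dose of Sayeok-tang, the dose difference also differed from that of dried ginger by the interaction term in edgeR's quasi-likelihood test. Values are the log2 fold change of Sayeok-tang minus that of dried ginger. Of the 8 that rose in Sayeok-tang and are flagged, 7 were smaller there: AKR1C2 (-2.60), AKR1C1 (-2.07), AKR1B10 (-1.34), ALDH3A1 (-1.12), SLC22A3 (-0.64), TRIM16L (-0.54) and GSR (-0.26). LINC02253 (1.85) was the one with the larger value in Sayeok-tang. Of the 6 that fell in Sayeok-tang, SLC14A1 (1.03), NPY6R (0.58), AKAP7 (0.54) and RNF144B (0.52) had larger falls in dried ginger, while WIPI1 (-0.76) was at 0.29 ± 0.11 and WWOX (-0.46) at -0.01 ± 0.07 in dried ginger, neither past the threshold. NPY6R is a transcribed pseudogene.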

How the results depend on the processing

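The cause of the changes below was not tested. High against low dose called 64 genes, and 104 with DESeq2, 124 when low-count genes were kept, 519 in a fit of the 6 libraries alone, 451 with the 9 Sayeok-tang libraries and 361 without the 3 libraries that stand apart (vehicle 1, Pinelliae Tuber high 2 and Scutellariae Radix low 3). With 1 of the 6 libraries left out it called 19 to 27: 25, 19 and 27 without high 1, 2 and 3, and 27, 27 and 23 without low 1, 2 and 3. Of the 64, 12 kept their call in all 6 and 52 lost it in at least 1. 61 were shared with DESeq2, 61 with the fit of 6 libraries and 34 with no filter, and 0 changed direction in any alternative run. Called genes with the medium dose between the others numbered 59, and 97 with DESeq2, 82 with no filter (of the 122 called there that also passed the filter), 464 with 6 libraries, 401 with 9, 327 without the 3, and 19 to 27 with 1 library left out. Medium against low dose called 0, and 64 with no filter, 18 in the fit of both groups alone, 16 with 9 and 4 without the 3. High against medium dose called 3, and 16 with DESeq2, 65 with no filter, 64 in the fit of both groups alone, 61 with 9, 69 without the 3 and 0 to 1 with 1 left out. The interaction with Bojungikgi-tang called 0, and 46 with no filter and 1 in the fit of those groups alone. That with dried ginger called 110, and 168 with no filter, 437 in the fit of those groups alone and 388 without the 3.

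Same-numbered libraries of the 3 doses correlated by -0.02 to 0.044 over all genes after group means were removed. Whether the numbers pair the samples is not in the labels, and a correlation over all genes cannot settle it. In the 42 interferon-stimulated genes, replicate 1 was most often the highest and replicate 2 the lowest library at both doses. With the replicate number as a block within code set, high against low dose called 65, and high against medium dose 10. With the replicate block and only the libraries compared, the counts were 764 for high against low, 664 for the genes with medium between, 310 for medium against low, 81 for high against medium, 7 for the interaction with Bojungikgi-tang and 618 for that with dried ginger. There 25 interferon-stimulated genes fell, MX1 (adjusted p = 4.5e-07, edgeR) and OAS2 (2.4e-07) among them. Depth limits the scarce genes most.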

Other observations

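Gene groups of growth and stress gave no calls between high and low dose. Of 25 DNA replication genes, 0 passed edgeR's quasi-likelihood test and 23 had a positive log2 fold change (median 0.08), and of 20 mitosis genes 0 passed and 19 were positive (median 0.06). Of 15 cytosolic heat shock genes 0 passed and 14 were positive (median 0.10). In the fit of the 6 compared libraries 5 replication genes, 1 mitosis gene and 5 heat shock genes rose, where 225 of 14958 genes rose (1.5%). The integrated stress response (19 genes, median 0.01), p53 targets (15 genes, median -0.01) and cholesterol genes (24 genes, median -0.02) had 0 calls and medians near that of all genes (0.00).

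Markers of secretory cells, the mucus and peptide producing lineages of the gut, leaned down: 12 of 14 were negative with a median of -0.15, 0 passed, and 4 fell in the fit of the 6 compared libraries (13 tested there, background 1.97%). Genes in the list of metallothioneins and zinc handling were negative in 7 of 7 (median -0.10) with 0 calls. Enterocyte markers (16 genes, median -0.02), tight junction genes (14 genes, median -0.03) and ribosomal proteins (32 genes, median 0.03) had 0 calls.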
